A study of Oryctolagus cuniculus with 8 samples.

Results

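Members of the S100, annexin, serpin, TIMP, cystatin and SPINK families were followed in rabbit limbal cells sorted by dye efflux. Every row of the deposited table whose gene name occurred once and began with S100A, S100B, S100P, ANXA, SERPIN or SPINK, or was TIMP1 to TIMP4, CSTA, CSTB, CST3 or CST6, was taken. This gave 46 members of 20922 gene entries: 11 S100 proteins, 10 annexins, 4 intracellular serpins of clade B, 9 serpins of other clades, 3 TIMPs, 3 cystatins and 6 SPINK inhibitors. A further 6 rows carried the repeated names SERPINB1 (4 rows) and SERPIND1 (2 rows) and were left out, since names are truncated at 8 characters. Members such as TIMP2, CSTB, SERPINB9 and S100A4 were not analysed here.

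The cells came from the epithelium of the limbus, the border of the cornea, of New Zealand white rabbits, and were stained with the DNA dye Hoechst 33342. The 4 side population (SP) samples hold the cells that pump the dye out and stay dim. The 4 non-side-population (NSP) samples hold the remaining limbal cells. The labels name no other treatment. They give neither age nor whether samples came from separate animals, so the p-values reflect only how these samples vary, and that variation may be technical.

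S100 proteins are small calcium-binding proteins with paired EF hands that change the activity of their partners inside the cell and, once released, act as danger signals on myeloid and epithelial cells. Annexins bind acidic membrane lipids in the presence of calcium and take part in membrane repair, vesicle traffic and the control of inflammation, and S100A10 and S100A11 bind to annexin A2 and annexin A1. Serpins trap serine proteases by an irreversible change of shape, TIMPs block metalloproteinases, cystatins block cysteine cathepsins, and SPINK proteins block trypsin-like proteases. In stratified epithelia such as the cornea these inhibitors limit shedding, matrix breakdown and damage by leukocyte enzymes.

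The libraries held 15553295 to 18931836 exon reads in SP and 20445565 to 23529101 in NSP. Levels are given as CPM, counts relative to library totals after TMM scaling. Markers of the limbal and corneal epithelium summed to 31120 to 53880 CPM in the NSP and 1204 to 9866 CPM in the SP libraries, and 16 of 19 tested genes of that list fell. The SP libraries held RNA of other cell types as well. Endothelial markers summed to 1934 to 17520 CPM in SP against 9.11 to 15.45 CPM in NSP, with SELE at 0 in NSP, and all 10 tested rose. T and NK markers summed to 354.4 to 1068 CPM in SP against 3.20 to 7.38 CPM in NSP, with CD8B at 0 in NSP, and all 7 tested rose. SELE and CD8B passed the filter on low counts through their SP libraries alone, so a rise was the only direction open to them. The same may hold for other genes of these lists, and of the lists below, with few NSP reads. Myeloid markers summed to 1189 to 2610 CPM in SP against 47.8 to 112.7 CPM in NSP, with none at 0, and 9 of 11 tested rose. Melanocyte markers summed to 2154 to 13490 CPM in SP against 186.3 to 335.7 CPM in NSP, with none at 0, and 8 of 9 tested rose. Stromal markers summed to 249.6 to 421.3 CPM in SP against 96.5 to 113 CPM in NSP, with COL3A1, LUM and KERA at 0 in NSP. Of 10 tested, 6 rose and 1 fell. Any tested gene at 0 in NSP passed the filter through SP libraries alone, so a rise was the only direction open to it. Schwann cell and nerve markers summed to 633.2 to 1377 CPM in SP against 298.1 to 390.8 CPM in NSP, with none at 0, and 5 of 7 tested rose and 1 fell. Their part in the results below was not tested. In such bulk samples, fewer cells of a type and less RNA per cell cannot be told apart.

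Of the 46 members, 36 passed the filter on low counts and were tested with limma-voom, and 23 of these were called at an adjusted p of 0.05. The 9 rises and 14 falls stood against 17.6% of all 10012 tested genes called higher in SP and 13.3% called lower, or 30.8% in either direction. With upper-quartile scaling the calls over all genes moved from 1758 rises and 1330 falls to 1407 and 1650, and those of the members to 7 and 16. The number of falls was stable, at 12 to 14 when any library was left out. The number of rises was not: it was 3 without SP replicate 3, 2 without NSP replicate 1, 4 without NSP replicate 2, and 5 without NSP replicate 3 or NSP replicate 4. In 20 of the 36 tested members the libraries of the groups did not overlap, 14 lower and 6 higher in SP, against 32.8% of all tested genes. Of the 36, 30 exceeded the filter level of 0.508 CPM in all 8 libraries. S100A3, S100A5, SPINK5 and SERPINB7 did not reach it in all SP libraries, nor S100A8 and S100B in all NSP libraries. The median log2 fold change, SP over NSP, was -0.49 over the tested members and 0.11 over all tested genes.

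**Figure D1:**
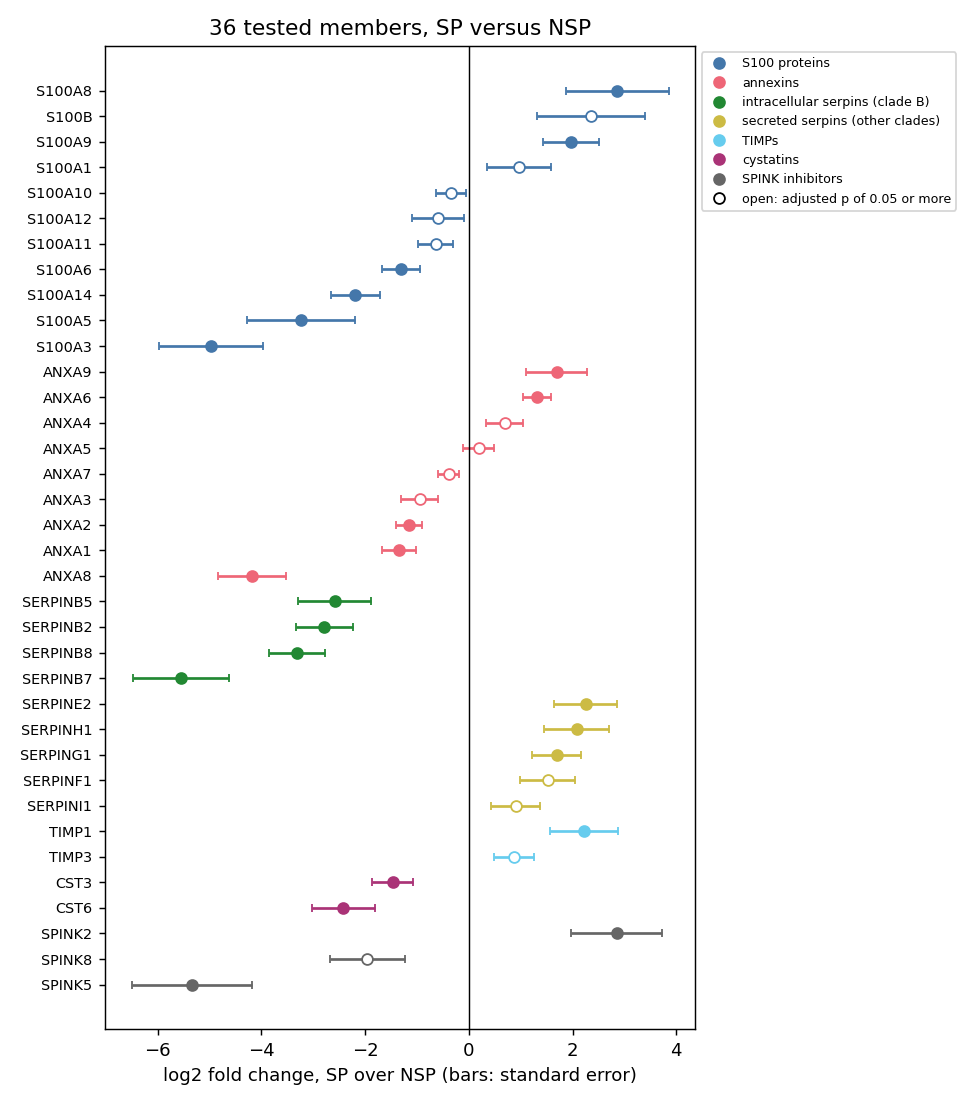
Log2 fold change of SP over NSP for the 36 tested members, in the order of the families, with bars for the standard error of limma-voom (4 libraries per group). Filled points passed an adjusted p of 0.05. All 4 clade B serpins and both cystatins lie left of 0 and all 5 serpins of other clades right of it.

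Per length of exon, the abundant members of the limbal cells were the S100 protein S100A6 and the annexins ANXA1 and ANXA2. In NSP, S100A6, which encodes calcyclin, stood at 17160 ± 5252 CPM per kb (SD, n = 4) and ANXA1 at 12240 ± 4517 CPM per kb, with overlapping libraries. ANXA2 followed at 4670 ± 842.2 CPM per kb, below every ANXA1 library. CST3, S100A11, S100A10 and SERPINB2 came next, between 2819 and 1143 CPM per kb, each overlapping its neighbour in the order. The gene model of S100A10 counts only 292 bases of exon. ANXA8 (710.6 ± 14.6 CPM per kb) was apart from its neighbours on both sides, SERPINB2 above and SERPINB5 (386.9 ± 54.6 CPM per kb) below. At the low end of the order were S100B (1.64 ± 1.26 CPM per kb) and ANXA9 (0.991 ± 0.429 CPM per kb), which overlapped.

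The order in SP began with the same members. S100A6 stood at 7190 ± 3120 CPM per kb, ANXA1 at 4881 ± 1759 CPM per kb and ANXA2 at 2113 ± 473.2 CPM per kb. TIMP1, at rank 14 in NSP with 120.5 ± 23.7 CPM per kb, stood at rank 7 in SP with 804.5 ± 660.2 CPM per kb. ANXA8, at rank 8 in NSP, was at rank 20 in SP with 57.2 ± 40.01 CPM per kb. In all, the 46 members took 3.36% to 4.23% of exon reads in the NSP libraries and 1.26% to 2.29% in the SP libraries. The exon length was read from a field whose header is truncated, so the levels per length rest on that reading.

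**Figure D2:**
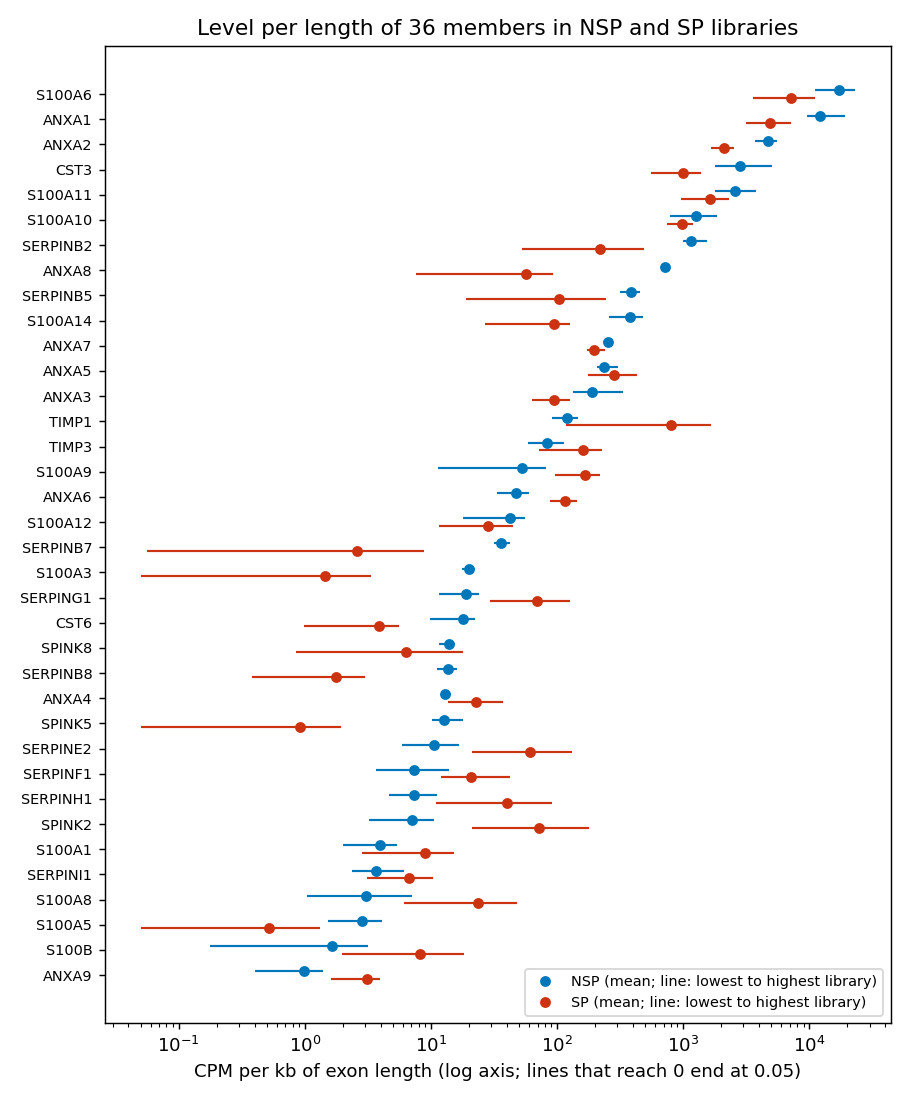
CPM per kb of exon length (log axis) of the 36 tested members, in the order of their NSP mean. Points are means of 4 libraries and lines run from the lowest to the highest library. The SP lines of TIMP1, SERPINB5 and SERPINB7 are wide, and the NSP line of ANXA8 is short.

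Among S100 proteins, 2 rose, 4 fell and 5 did not pass of 11 tested, with a median log2 fold change of -0.60. The falls were S100A3, S100A5, S100A14 and S100A6, and the rises S100A8 and S100A9. S100A6, which binds annexins and tubulin and marks proliferating and stress-exposed epithelium, was at 2620, 4369, 1391 and 2894 CPM in SP replicates 1 to 4. In NSP replicates 1 to 4 it was at 8973, 5839, 4321 and 7772 CPM. The groups overlapped narrowly, since SP replicate 2 was just above NSP replicate 3. The log2 change was -1.31 ± 0.37 (adjusted p = 0.0214), and the call ended without NSP replicate 1 (0.0526) or NSP replicate 4 (0.0663).

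S100A14, an epithelial S100 protein tied to keratinocyte adhesion and differentiation, was at 115.3, 121.8, 28.0 and 133.8 CPM in SP. Its NSP libraries held 507, 270.6, 329.1 and 493.4 CPM, all above SP. SP over NSP, the log2 change was -2.19 ± 0.47 (adjusted p = 0.00626). SP replicate 3 was the lowest library, as it was for S100A6 and for the summed epithelial markers (1204 CPM). The highest SP libraries differed: replicate 4 for S100A14, replicate 2 for S100A6 and replicate 1 for that sum. The part of epithelial cells was not tested.

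S100A3, a cysteine-rich protein of the hair cuticle, was at 2.37, 0.620, 0 and 1.11 CPM in SP and 15.4, 15.8, 13.2 and 12.4 CPM in NSP. The NSP libraries stayed close together and the SP libraries lay far below them. As log2, SP over NSP, this was -4.97 ± 1.00 (adjusted p = 0.00429), -3.53 with limma-trend, -3.56 without SP replicate 3 and -5.80 without SP replicate 1. S100A5, a calcium-, zinc- and copper-binding member best known from olfactory neurons, was lower too, at 0 to 1.12 CPM in SP against 1.30 to 3.48 CPM in NSP. Its log2 fold change was -3.23 ± 1.04 (adjusted p = 0.0376), or -1.71 with limma-trend, -2.13 without SP replicate 1 and -3.95 without SP replicate 3. Its call held without SP replicate 3 or NSP replicate 3 and ended without any other single library, with adjusted p up to 0.0940. A count of 0 in an SP library allows a level of up to 3 reads, or 0.155 to 0.208 CPM.

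S100A8 and S100A9 form the heterodimer calprotectin, an abundant product of neutrophils and monocytes that epithelia also make under stress. S100A9 was at 93.0, 52.7, 95.8 and 119.5 CPM in SP and at 6.19, 21.6, 41.9 and 44.5 CPM in NSP, without overlap. With all libraries, the log2 fold change was 1.97 ± 0.54 (adjusted p = 0.0201). It was 1.2 without NSP replicate 1, and the call ended without NSP replicate 2 (0.0510) and with sample quality weights (0.0638). S100A8 was at 22.9, 3.62, 15.58 and 2.92 CPM in SP and 0.497, 0.742, 1.202 and 3.35 CPM in NSP. SP replicate 4 lay below NSP replicate 4, and the other SP libraries above all NSP libraries. Its log2 fold change of 2.86 ± 0.99 (adjusted p = 0.0491) ended as a call with median-ratio (0.0532) or upper-quartile scaling (0.0598) and when SP replicate 1, SP replicate 3 or 1 of the NSP libraries was left out (up to 0.143). The pair did not share an order of SP libraries: S100A9 was highest in SP replicate 4, where S100A8 was lowest. Myeloid markers summed to 1397, 1706, 2610 and 1189 CPM in SP replicates 1 to 4, and their part in this was not tested.

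The other S100 members did not pass. S100A10, which links annexin A2 to plasminogen binding at the cell surface, was at 218 to 350.3 CPM in SP against 230.2 to 541.8 CPM in NSP (log2 fold change -0.34 ± 0.29, adjusted p = 0.408). S100A11, the annexin A1 partner, was at 995.2 ± 333 CPM in SP against 1559 ± 584.2 CPM in NSP (-0.64 ± 0.34). S100A12, a neutrophil alarmin, was at 14.4 ± 6.91 CPM in SP against 21.3 ± 8.504 CPM in NSP. With all libraries, the log2 fold change was -0.60 ± 0.50. S100A1, a muscle and nerve member, had 0.97 ± 0.62. S100B, the glial and melanocytic member, was at 15.4, 1.65, 7.95 and 2.71 CPM in SP against 0.150 to 2.67 CPM in NSP, with a log2 fold change of 2.35 ± 1.04 (adjusted p = 0.112). Its high libraries, SP replicates 1 and 3, also held the highest sums of melanocyte markers, 13490 and 8316 CPM against 2154 and 2720 CPM in SP replicates 2 and 4. Schwann cell and nerve markers were high in SP replicate 1 but not 3, at 1377, 753.2, 742.4 and 633.2 CPM in SP replicates 1 to 4. The part of either list was not tested.

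**Figure D3:**
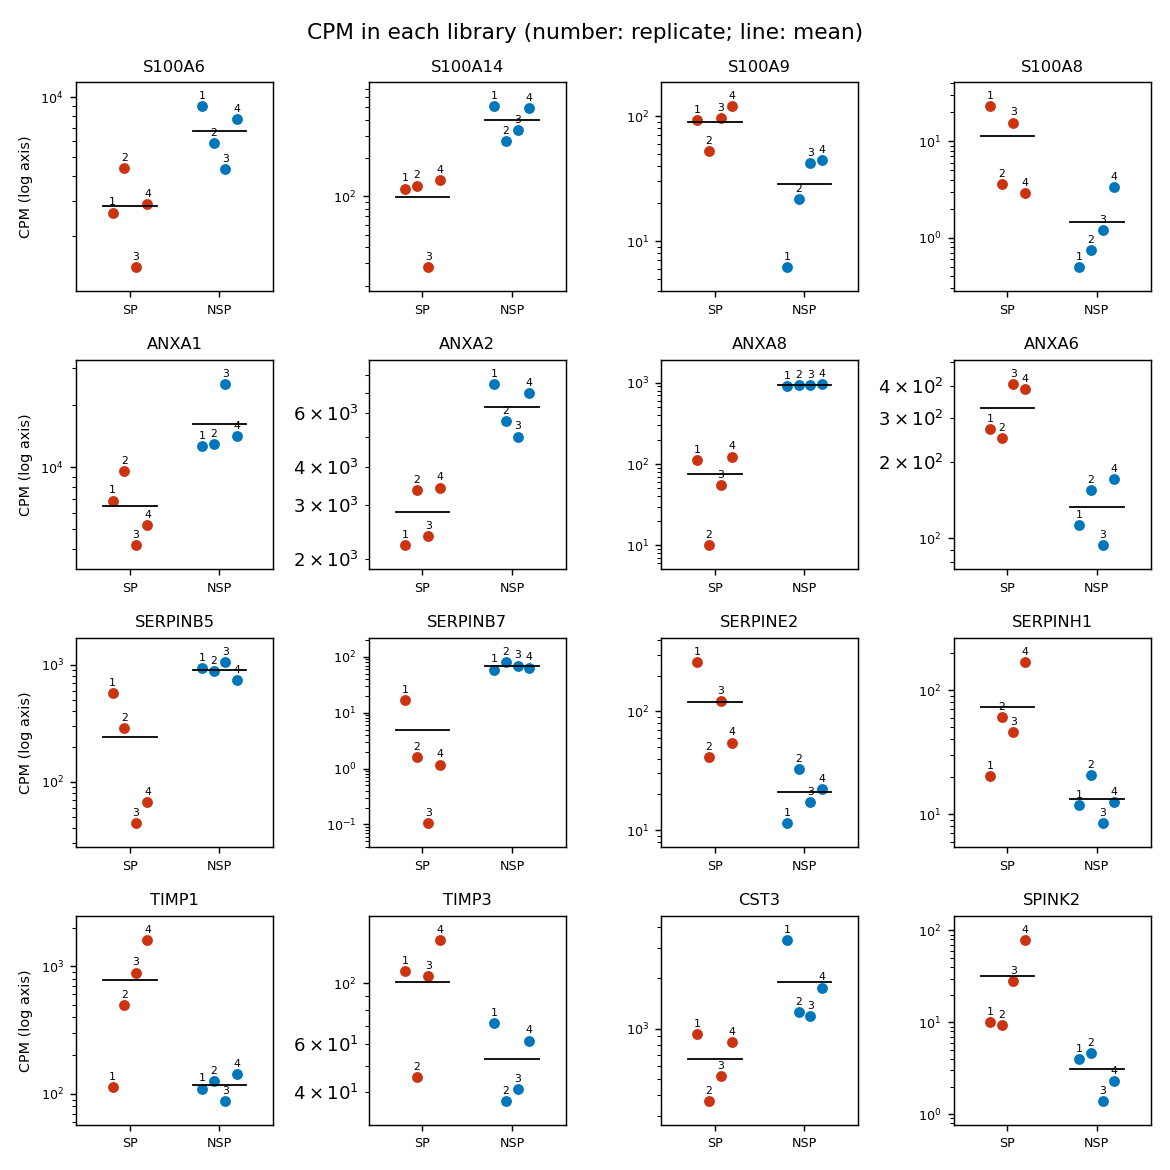
CPM (log axis, its own range in each panel) of 16 members in each library, with the replicate number beside each point and a line at the mean of 4 libraries. SP points of SERPINB5, SERPINB7 and TIMP1 are spread widely and those of ANXA8 in NSP nearly coincide.

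Of 9 tested annexins, ANXA1, ANXA2 and ANXA8 fell, ANXA6 and ANXA9 rose and 4 did not pass. ANXA8, an annexin of stratified epithelia first described as a vascular anticoagulant, moved farthest. It was at 911.3, 945.3, 938.8 and 956.7 CPM in NSP and at 112.9, 10.1, 55.6 and 123.4 CPM in SP. The NSP libraries differed by 1.05-fold from lowest to highest and the SP libraries by 12.2-fold. The log2 change was -4.18 ± 0.65 (adjusted p = 0.00116), or -3.36 without SP replicate 2 and -4.94 with sample quality weights.

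ANXA1, the glucocorticoid-induced annexin that limits leukocyte entry, was at 6896, 9541, 4201 and 5232 CPM in SP. In NSP it was at 12660, 12960, 25150 and 14110 CPM, all above SP. SP over NSP, the log2 change was -1.34 ± 0.33 (adjusted p = 0.0117). ANXA2, a membrane and actin organiser that carries S100A10, was at 2219, 3359, 2369 and 3422 CPM in SP and 7459, 5659, 5024 and 6983 CPM in NSP. The groups did not overlap and the log2 fold change was -1.15 ± 0.25 (adjusted p = 0.00632). Both calls held in all 14 alternatives. For ANXA2 and its partner S100A10 the values differed, -1.15 ± 0.25 against -0.34 ± 0.29, and that difference was not tested.

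ANXA6, the large annexin with doubled repeats that lymphocytes, endothelium and mesenchyme express, was at 271.2, 248.5, 407 and 390.3 CPM in SP and 112.4, 155.2, 93.8 and 170.8 CPM in NSP. All SP libraries were above all NSP libraries, with a log2 fold change of 1.32 ± 0.27 (adjusted p = 0.00482). This was the single rise among the members that kept its call in all 14 alternatives. ANXA9, an annexin with altered calcium sites, rose from 1.72 ± 0.743 to 5.42 ± 1.88 CPM (1.69 ± 0.58, adjusted p = 0.04997), at the edge of the threshold. Its call ended in 12 of 14 alternatives, the scalings, both filters, the quality weights and 7 of 8 single libraries left out among them (adjusted p up to 0.145), and held with limma-trend and without SP replicate 2.

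ANXA3, ANXA4, ANXA5 and ANXA7 did not pass. ANXA3, an angiogenic annexin, was at 99.0 to 197.9 CPM in SP against 209 to 515.8 CPM in NSP. Those groups did not overlap, yet the log2 fold change of -0.95 ± 0.36 missed the threshold (adjusted p = 0.0683) and passed it with median-ratio (0.0458) and upper-quartile scaling (0.0337). ANXA5, the phosphatidylserine binder used to stain dying cells, had a log2 fold change of 0.19 ± 0.30, which was -0.04 at the lowest and 0.32 at the highest over the alternatives. ANXA7, a membrane fusion annexin, had -0.39 ± 0.20, and ANXA4, an epithelial annexin, 0.69 ± 0.35. ANXA13, the gut annexin, had 22 reads in SP replicate 4 and none elsewhere, and was not tested.

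The 4 clade B serpins that could be read, SERPINB2, SERPINB5, SERPINB7 and SERPINB8, all fell, by a median of 3.05 on the log2 scale. SERPINB5, or maspin, an epithelial serpin that does not inhibit proteases, was at 574.2, 290.1, 44.5 and 67.01 CPM in SP. In NSP it was at 937.5, 892.3, 1056 and 746.3 CPM. All SP libraries lay below all NSP libraries, and SP replicate 1 was 12.9-fold above SP replicate 3. As log2, SP over NSP, this was -2.59 ± 0.70 (adjusted p = 0.0179), or -3.23 without SP replicate 1.

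SERPINB2, the plasminogen activator inhibitor 2 of keratinocytes and monocytes, was at 884.5, 290.8, 95.9 and 301.9 CPM in SP and 2771, 1800, 1826 and 1876 CPM in NSP (log2 fold change -2.79 ± 0.55, adjusted p = 0.00396). SERPINB7, a skin serpin whose loss causes Nagashima-type palmoplantar keratosis, was at 16.7, 1.602, 0.107 and 1.18 CPM in SP. Its NSP libraries held 59.4, 80.4, 70.0 and 64.2 CPM. The log2 fold change of -5.55 ± 0.93 (adjusted p = 0.00165) was the most negative among the members tested here. It was -4.80 with limma-trend, -6.77 without SP replicate 1 and -4.34 without SP replicate 3. SERPINB8, an inhibitor of furin, was at 6.79, 3.15, 0.854 and 5.07 CPM in SP against 25.1 to 36.2 CPM in NSP (-3.31 ± 0.54, adjusted p = 0.00142, or -2.68 without SP replicate 3).

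SP replicate 1 was the highest and SP replicate 3 the lowest SP library for all 4 of these serpins. The summed epithelial markers had the same highest and lowest SP libraries, 9866 and 1204 CPM. How many of all tested genes share these was not counted. Of the 36 tested members, SERPINB2, SERPINB8, S100A3 and ANXA4 had SP libraries in the full order of that sum (replicates 1, 4, 2, 3), or 11.1% of them, against 2.16% of all tested genes. SERPINB5 and SERPINB7 did not hold the full order, and ANXA4 was not called and did not fall (0.69 ± 0.35). The part of epithelial cells in these orders was not tested. In the RefSeq gene table of assembly mOryCun1.1, SERPINB8, SERPINB2, SERPINB7 and SERPINB5 lie in 1 run of clade B serpin genes on the same chromosome, in that order. The S100A genes lie in another run, S100A3 and, past 5 other coding genes, S100A1, S100A14, S100A5, S100A6, S100A8 and S100A9, with S100A11 and S100A10 side by side 26 coding genes farther on. Neighbours in the S100 run moved in different directions: S100A14, S100A5 and S100A6 fell, and S100A8 and S100A9 rose.

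**Figure D4:**
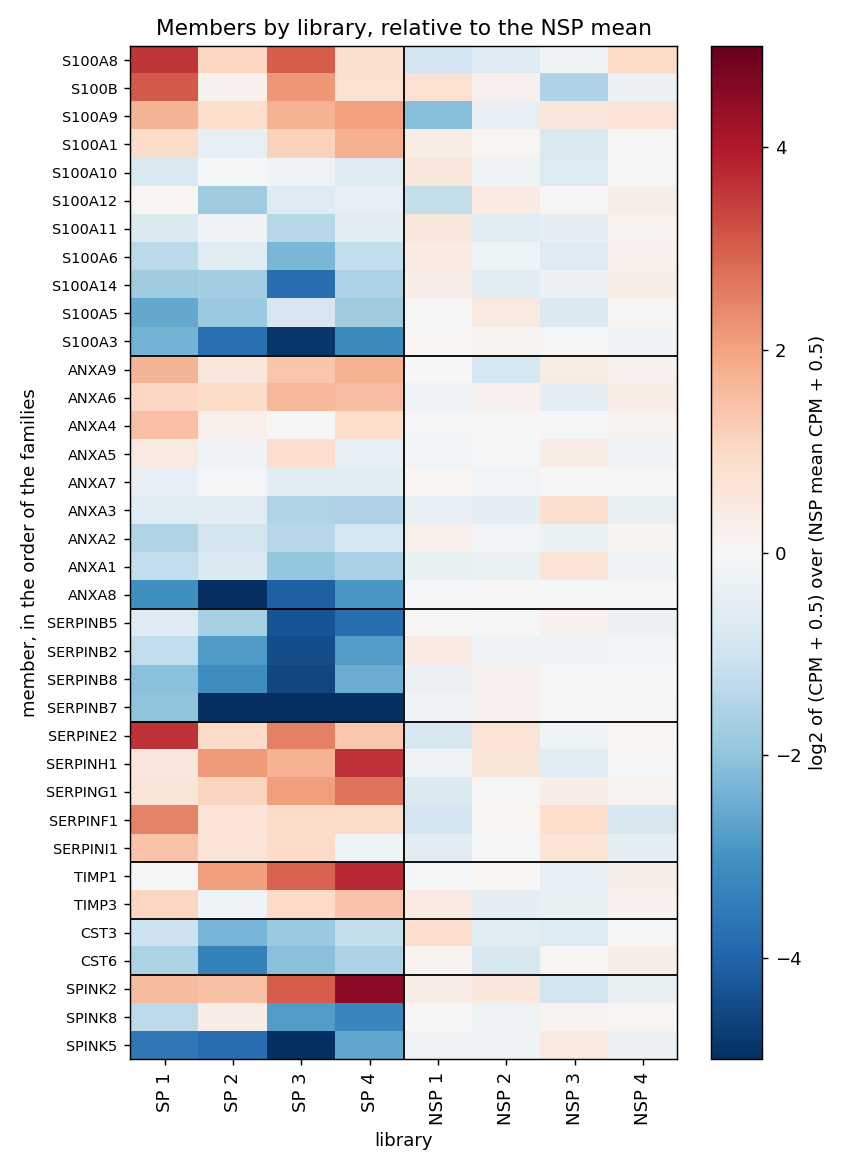
Each tested member in each library as log2 of its CPM plus 0.5 over the NSP mean plus 0.5, with lines between the families and between SP and NSP. The colour scale ends at 5 in both directions. Clade B serpins are blue in all SP libraries and palest in SP replicate 1.

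Of the 9 serpins of other clades, 5 were tested: SERPINE2, SERPING1 and SERPINH1 rose and SERPINF1 and SERPINI1 did not pass, with a median log2 fold change of 1.69. The 3 rises became 0 without NSP replicate 1, 1 without SP replicate 3 and 5 with sample quality weights. SERPINE2, or protease nexin 1, a matrix-bound inhibitor of thrombin and urokinase, was at 259.1, 41.3, 122.7 and 54.6 CPM in SP and 11.5, 32.6, 17.3 and 22.2 CPM in NSP. The groups did not overlap, and the log2 fold change was 2.25 ± 0.60 (adjusted p = 0.0176), with the call lost without NSP replicate 1 (0.0696). Its SP libraries stood in the order of the melanocyte marker sums (replicates 1, 3, 4, 2), as S100B did. That order was held by 5.56% of the tested members and 2.96% of all tested genes.

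SERPING1, the C1 inhibitor of complement and contact activation, was at 43.8, 61.5, 123 and 188.4 CPM in SP and 17.1, 29.3, 35.7 and 31.2 CPM in NSP. All SP libraries were higher, with a log2 fold change of 1.69 ± 0.47 (adjusted p = 0.0202), lost without SP replicate 3 (0.0544) or NSP replicate 1 (0.0763). SERPINH1, the collagen chaperone HSP47 of the endoplasmic reticulum, was at 20.2, 60.5, 45.8 and 167.7 CPM in SP and 11.8, 20.6, 8.51 and 12.5 CPM in NSP. NSP replicate 2 overlapped with SP replicate 1. Its log2 fold change was 2.08 ± 0.63 (adjusted p = 0.0296) and 1.44 without SP replicate 4, and the call ended without SP replicate 2 or 3 or NSP replicate 1, 3 or 4 (up to 0.0905). Stromal markers, which include collagen genes, summed to 249.6, 268.9, 421.3 and 288.2 CPM in SP replicates 1 to 4, and endothelial markers to 1934, 5830, 7148 and 17520 CPM.

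SERPINF1, the antiangiogenic factor PEDF, was at 76.2 CPM in SP replicate 1 and 21.3 to 26.0 CPM in the other SP libraries, against 6.60 to 24.8 CPM in NSP. The log2 fold change of 1.52 ± 0.53 missed the threshold (adjusted p = 0.0516) and passed it in 4 alternatives (down to 0.0129 with sample quality weights). SERPINI1, or neuroserpin, was at 10.2 ± 4.69 CPM in SP against 5.57 ± 2.63 CPM in NSP (0.90 ± 0.48). The other 4 serpins of this list were not tested. SERPINF2 had 43 reads in SP and 13 in NSP over all libraries, SERPINC1 7 and 6, and SERPINA7 and SERPINI2 had none.

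TIMP1, the broad inhibitor of matrix metalloproteinases, was at 112.8, 494.3, 891.3 and 1601 CPM in SP and between 88.1 and 141.7 CPM in NSP. SP replicate 1 stood at the NSP level and the other SP libraries above all NSP libraries. With all libraries, the log2 fold change was 2.22 ± 0.65 (adjusted p = 0.0259). It was 2.96 without SP replicate 1 and 1.53 without SP replicate 4, and the call ended without SP replicate 3 or 4 or NSP replicate 1, 2 or 3 (up to 0.0740). The SP libraries of TIMP1 and SERPING1 stood in the order of the endothelial marker sums (replicates 4, 3, 2, 1). This was 5.56% of the tested members, below the 10.1% of all tested genes that shared it. S100A5, at few reads, alone had the order of the stromal sums. No tested member had the order of the T and NK, myeloid, or Schwann cell and nerve sums. TIMP3, the matrix-bound TIMP, was at 110.8, 45.3, 106.2 and 144.2 CPM in SP against 37.2 to 71.8 CPM in NSP (0.87 ± 0.38, adjusted p = 0.108, or 1.22 with adjusted p = 0.0162 without SP replicate 2). TIMP4 had 0, 3, 11 and 28 reads in SP and none in NSP. Over pooled reads TIMP4 was at least 16.6-fold higher in SP against 3 reads over the NSP group, a bound that rests mostly on SP replicates 3 and 4. It did not pass the filter on low counts and was not tested. With the filter of 1 read it was called higher, the only direction open to it without NSP reads.

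Both tested cystatins fell. CST3, or cystatin C, the secreted inhibitor of cathepsins, was at 922.3, 371.8, 519.6 and 829.4 CPM in SP and 3359, 1248, 1188 and 1749 CPM in NSP. The groups did not overlap, and the log2 fold change was -1.47 ± 0.39 (adjusted p = 0.0173). CST6, or cystatin M/E, an epidermal inhibitor of legumain and cathepsin V, was at 3.40, 0.620, 2.24 and 3.54 CPM in SP and 12.6, 6.17, 12.2 and 14.04 CPM in NSP (-2.42 ± 0.61, adjusted p = 0.0133). Both calls held in all 14 alternatives. CSTA, the cystatin A of cornified epithelia, had 5 reads in SP replicate 2 and none in any other library.

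The SPINK inhibitors differed in direction. SPINK5, which encodes LEKTI, the kallikrein inhibitor whose loss causes Netherton syndrome, was at 3.29, 2.74, 0 and 6.87 CPM in SP and 39.1, 39.95, 63.5 and 36.4 CPM in NSP. All SP libraries were far lower, with a log2 fold change of -5.34 ± 1.16 (adjusted p = 0.00653), -4.09 with limma-trend, -3.50 without SP replicate 3 and -6.31 without SP replicate 4. SPINK2, a trypsin and acrosin inhibitor known from testis, rose, at 10.1, 9.30, 28.3 and 78.7 CPM in SP and 3.98, 4.64, 1.40 and 2.28 CPM in NSP. Its log2 fold change was 2.85 ± 0.88 (adjusted p = 0.0313) and 2.15 without SP replicate 4, and the call ended when SP replicate 3 or 1 of the NSP libraries was left out (up to 0.0800). SPINK8 was at 3.88, 12.97, 1.07 and 0.625 CPM in SP against 8.49 to 11.3 CPM in NSP, so that SP replicate 2 lay above all NSP libraries. With all libraries, the log2 fold change of -1.96 ± 0.72 missed the threshold (adjusted p = 0.0615) and was -2.79 (0.0158) without SP replicate 2. It also passed with median-ratio (0.0497) and upper-quartile scaling (0.0435). SPINK1, SPINK4 and SPINK7 had 6, 9 and 7 reads over all libraries.

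The proteases that these inhibitors hold were read from fixed lists, again beside 30.8% of all tested genes called. Of 17 metalloproteinases tested, 5 rose and 5 fell. The rises numbered 2 without SP replicate 2 or SP replicate 3 and 3 without SP replicate 4, and the falls 3 without SP replicate 1. Part of the loss of rises came from the filter. ADAMTS5 and MMP16, both called higher, passed it through the SP libraries alone and left the test when any SP library was left out. MMP1, the interstitial collagenase, was at 2.16 to 22.1 CPM in SP against 388.7 to 1040 CPM in NSP (log2 fold change -7.03 ± 0.63, adjusted p = 0.000109, or -7.80 without SP replicate 4), and ADAM8 fell by 3.03 on the log2 scale. MMP2, the gelatinase that TIMP2 and TIMP3 bind, was at 33.4 to 120.5 CPM in SP against 0 to 1.53 CPM in NSP (7.59 ± 1.33, or 6.12 with limma-trend, 6.35 with quality weights, 6.30 without NSP replicate 3 and 8.25 without NSP replicate 2). MMP16, a membrane-bound metalloproteinase, had 503 SP reads and 5 NSP reads and was called higher (adjusted p = 0.000628). Its fitted log2 value, 6.97, rests on those 5 reads and was 3.75 with limma-trend, 6.24 with quality weights and 7.64 without NSP replicate 4. No NSP library reached the filter level, and MMP16 left the test when any SP library was left out.

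Of 6 genes of the plasminogen and coagulation list tested, 1 rose and 2 fell. PLAU, the urokinase that SERPINB2 and SERPINE2 inhibit, was at 2788, 997.4, 316.5 and 1550 CPM in SP and 7607, 5385, 13860 and 6375 CPM in NSP. All SP libraries were lower (log2 fold change -2.84 ± 0.59, adjusted p = 0.00526, or -2.25 without SP replicate 3). Urokinase and its intracellular inhibitor SERPINB2 fell while its matrix inhibitor SERPINE2 rose. PROCR, the endothelial protein C receptor, rose (3.46 ± 0.96, or 4.23 without SP replicate 1), a call lost without NSP replicate 1, 2 or 3 (adjusted p up to 0.0605). F2, prothrombin, fell (-3.67 ± 1.17, or -2.36 with limma-trend, -4.64 without SP replicate 2 and -4.32 without SP replicate 4), with the call lost without SP replicate 1 or 3 or NSP replicate 1, 2 or 4 (up to 0.0746) and a value of -2.11 without SP replicate 3.

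Of 9 lysosomal proteases tested, 4 rose and 1 fell. CTSS, the cathepsin of antigen-presenting cells, was at 96.9 to 150.5 CPM in SP against 8.07 to 38.7 CPM in NSP (2.67 ± 0.40, adjusted p = 0.000931), and CTSK, the collagen-degrading cathepsin, rose by 2.25 on the log2 scale. CTSV, the epithelial cathepsin that CST6 inhibits, was at 1230, 1099, 446.2 and 566.1 CPM in SP and 3317, 2182, 1825 and 2127 CPM in NSP (-1.59 ± 0.36, adjusted p = 0.0078). Of 17 listed kallikreins and leukocyte serine proteases, only GZMK and GZMH could be read, so the others were not analysed here. GZMK, with 81 SP reads and no NSP read, did not pass the filter on low counts. GZMH was the single tested gene of the list. It had 6509 SP reads, or 3.02, 134.1, 147.5 and 75.97 CPM in SP replicates 1 to 4, and no NSP read. Over pooled reads this was at least 2573-fold higher against 3 reads over the NSP group, a bound that SP replicate 1 alone does not reach. The fitted log2 fold change was 10.92 ± 3.64, or 6.59 with limma-trend. GZMH had an adjusted p of 0.0435, which rose to between 0.0911 and 0.1045 when any NSP replicate was left out. It reached the filter level in the 4 SP libraries alone, so that it left the test when any SP library was left out.

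Of 10 other protease inhibitors tested, 3 rose and 3 fell. The rises numbered 1 without SP replicate 3 or SP replicate 4. TFPI, the endothelial tissue factor inhibitor, had 2176 SP reads and 4 NSP reads, and was called higher (adjusted p = 0.00136). Its fitted log2 value was 8.69, or 5.57 with limma-trend, and rests on those 4 reads. TFPI was tested through its SP libraries alone, since no NSP library reached the filter level, and left the test when any SP library was left out. RECK, a membrane inhibitor of metalloproteinases, rose by 5.74 (3.85 with limma-trend, 6.71 with quality weights, 6.40 without NSP replicate 2 and 4.74 without NSP replicate 4). SPOCK1, a testican, fell by 5.23 (-4.55 without SP replicate 3), and PAPLN, papilin, fell by 1.70. Among 9 tested partners of S100 proteins and annexins, 2 rose and 2 fell. DYSF, the muscle and endothelial membrane repair protein dysferlin that binds annexins, was at 13.6, 39.1, 101.1 and 166.3 CPM in SP and had 19 reads in NSP replicate 4 and none in the other NSP libraries. Its log2 fold change was 9.81 ± 2.40 (adjusted p = 0.0114). It was 6.42 with limma-trend, 8.41 with quality weights, 10.50 without SP replicate 1, 9.17 without SP replicate 4, 9.22 without NSP replicate 1 and 11.14 without NSP replicate 4. RECK and DYSF each reached the filter level in 4 SP libraries and only 1 NSP library, so both were tested mainly through SP. SYTL1, a Rab effector, fell by 1.61. TRPV5, a calcium channel that S100A10 brings to the membrane, had -3.18 ± 0.98 (-4.21 with quality weights and -4.04 without SP replicate 1), a call lost without SP replicate 2 (-2.37) or 3 or NSP replicate 1, 2 or 4 (adjusted p up to 0.0971). ALG2 (1.17) was on the list by mistake and is not counted: it is a mannosyltransferase and not the annexin partner ALG-2, which is encoded by PDCD6.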

How the data were processed

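Per the labels, libraries from total RNA (4 SP, 4 NSP) were read by Ion Proton. The authors deposited 1 fixed-width table of 163 fields of 8 characters in 6 stacked blocks, read by character position. The field used per library holds whole numbers, taken as unscaled exon read counts, and matched the deposited group means within 0.05. Not given in the sources used here: aligner, genome build, annotation. Column headers show the group only, so replicates 1 to 4 are numbered in column order. The other 143 per-library fields were not used.

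Of 46 members, 45 matched the RefSeq table (mOryCun1.1, names and neighbours only), all but S100A12. TMM factors (trims of 30% and 5%) were computed here. Genes with at least 0.508 CPM (10 reads in the median library) in 4 libraries and 15 reads in all were kept, which left 10012. They were tested with limma-voom (limma 3.58.1, R 4.3.3, offset 0.5), group as the only term, two-sided, with Benjamini-Hochberg adjustment over all tested genes. The test was checked on simulated counts with the same spread in both groups and few changed genes. That check does not cover the wider spread of the SP libraries or the large share of genes called. The alternatives tried were 2 other scalings (median-ratio, upper-quartile), 2 other filters (1 read, or 10 reads in 4 libraries), limma-trend, sample quality weights and leaving out each library. Members and lists were chosen with earlier results of these data known. By rule, each family's up to 3 smallest p in each direction and a fixed set of members are given by library, and up to 2 genes per direction of each protease, inhibitor and partner list are named. Floors of 3 reads cover counting error only. Tables were parsed with pandas 2.3.3 and NumPy 2.4.6 under Python 3.11.15, and plots drawn with matplotlib 3.10.9.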

Additional observations from a re-analysis of the deposited data

Results flagged for a closer look

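In 7 of 72 groups of 4 libraries (36 tested members in 2 groups), 1 library stood far from the other 3 by Dixon's ratio, a test that chance passes in about 1 of 20 groups. NSP replicate 3 was the high library for ANXA1 (25150 CPM against 12660 to 14110), ANXA3 (515.8 against 209 to 223.9), ANXA5 (508.4 against 345 to 367.1) and SPINK5 (63.5 against 36.4 to 39.95). NSP replicate 1 was the high library for SERPINB2 (2771 CPM against 1800 to 1876). SP replicate 1 was the high library for SERPINB7 (16.7 CPM against 0.107 to 1.602) and SERPINF1 (76.2 against 21.3 to 26.0).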

How the results depend on the processing

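Of the 23 members called, 13 kept their call in all 14 alternatives, 10 lost it in at least 1, and 5 of the 13 uncalled members gained one in at least 1; no called member changed sign. Leaving out single libraries gave 2 to 10 rises and 12 to 14 falls. The other alternatives gave 7 to 10 rises and 14 to 16 falls, all within 1.5 times the reported 9 and 14. Median-ratio and upper-quartile factors moved the median log2 fold change of all genes by -0.11 and -0.19, and leaving out SP replicate 4 or NSP replicate 1 by -0.17 and -0.14. Members with groups that did not overlap numbered 6 to 7 higher and 13 to 16 lower under other scalings. No paired analysis was possible because the columns carry no replicate number. Members under about 1 CPM rest on few reads in each library.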

Other observations

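The SP libraries differed in their levels of the called members. Of the 14 members that fell, 9 were lowest in SP replicate 3, 3 in SP replicate 2 and 2 in SP replicate 1. Of the 9 that rose, 6 were highest in SP replicate 4, 2 in SP replicate 1 and 1 in SP replicate 3. The same was not counted over all tested genes, so these counts may not be particular to the members. Clade B serpins took 0.169% of exon reads in SP replicate 1, 0.0603% in SP replicate 2, 0.0140% in SP replicate 3 and 0.0347% in SP replicate 4, against 0.268% to 0.357% in NSP. TIMPs took 0.0255%, 0.0556%, 0.0988% and 0.162% of exon reads in SP replicates 1 to 4 and 0.0126% to 0.0201% in NSP. In NSP replicate 3, ANXA1 alone took 2.46% of exon reads, against 1.19% to 1.39% in the other NSP libraries.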
